A study of Mus musculus with 6 samples.

Results

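Interleukins and their receptors were followed in mouse liver as the genes whose symbol begins with Il and a number and that held at least 10 raw counts summed over 6 RNA-seq libraries. Of 56847 gene IDs in the deposited table, 83 carried such a symbol, and 50 of these reached the minimum. Another 22 had 0 counts and 11 had fewer than 10. The 50 genes comprise 16 ligands, 30 receptor chains, and 4 genes for antagonists, decoy receptors or binding proteins, as classed from general knowledge of the families. Just inside the minimum lay Il10 with 10 counts, Il17d with 11 and Il17c with 12. Just outside lay Il11 and Il9r with 8 counts each.

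The comparison was between diets. CDAHFD is a high-fat diet that lacks choline and supplies defined amino acids, and it is widely fed to mice to bring about fatty liver with inflammation and fibrosis; 3 libraries came from livers on it and 3 from livers on normal diet. The tissue is whole liver, and poly(A) RNA was sequenced. The sources used here give no strain, sex, age, genotype or time on the diet. Nothing in them ties each library to an animal of its own, so p-values measure only the spread among these libraries, which may be technical. The series title asks about ALDH18A1 in metabolic dysfunction-associated steatohepatitis. Total counts ran from 21986215 to 25628531 per library, and Alb, the defining hepatocyte gene, held 73248 ± 4822 CPM (counts scaled to library size) on CDAHFD and 101386 ± 9245 CPM on normal diet (SD, n = 3 each).

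Interleukins are secreted proteins through which immune, stromal and epithelial cells signal to each other over short distances. Most bind a private receptor chain that then recruits a shared one, such as IL1RAP for the IL-1 family, gp130 (Il6st) for the IL-6 family or the common gamma chain (Il2rg) for the IL-2 family, so a cell's response depends on both. In liver, hepatocytes carry receptors for IL-6, IL-1 and IL-22 and answer them with acute phase proteins, while macrophages, lymphocytes and stellate cells make many of the ligands. Soluble antagonists and decoys of the IL-1 family, among them IL-1 receptor antagonist and IL-18 binding protein, block binding without signalling. The counts are per gene and do not separate soluble from membrane-bound receptor transcripts.

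The starts of 4 genes on which the results turn are shown first, as examples chosen after their values were seen: 2 genes with a large rise and 2 abundant chains that were lower. They are RefSeq promoter windows of GRCm38.p6, 250 bases before to 50 after the start, 5′ to 3′ on the gene's strand, and the capitals mark CG dinucleotides. Il1rn (chr2:24336610-24336909, plus strand) and Il7r (chr15:9529827-9530126, minus strand) were higher on CDAHFD, and Il1rap (chr16:26581455-26581754, plus strand) and Il6ra (chr3:89913147-89913446, minus strand) were lower.
Il1rn: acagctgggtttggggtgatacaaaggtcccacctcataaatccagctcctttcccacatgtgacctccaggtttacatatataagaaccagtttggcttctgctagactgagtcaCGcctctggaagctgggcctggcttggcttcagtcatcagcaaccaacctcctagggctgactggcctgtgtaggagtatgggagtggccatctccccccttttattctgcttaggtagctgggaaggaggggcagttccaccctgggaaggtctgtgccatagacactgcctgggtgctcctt
Il7r: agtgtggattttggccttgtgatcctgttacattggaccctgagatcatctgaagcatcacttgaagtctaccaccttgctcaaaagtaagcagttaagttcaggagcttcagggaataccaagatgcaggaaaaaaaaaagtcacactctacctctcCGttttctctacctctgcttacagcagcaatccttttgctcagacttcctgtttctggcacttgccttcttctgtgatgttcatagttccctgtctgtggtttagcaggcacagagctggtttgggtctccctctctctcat
Il1rap: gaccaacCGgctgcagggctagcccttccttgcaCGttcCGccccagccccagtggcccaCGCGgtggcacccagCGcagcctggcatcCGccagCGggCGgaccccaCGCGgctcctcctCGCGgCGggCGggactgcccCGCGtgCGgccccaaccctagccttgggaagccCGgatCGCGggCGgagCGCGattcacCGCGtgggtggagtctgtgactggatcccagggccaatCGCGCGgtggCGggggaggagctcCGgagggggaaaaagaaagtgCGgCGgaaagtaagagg
Il6ra: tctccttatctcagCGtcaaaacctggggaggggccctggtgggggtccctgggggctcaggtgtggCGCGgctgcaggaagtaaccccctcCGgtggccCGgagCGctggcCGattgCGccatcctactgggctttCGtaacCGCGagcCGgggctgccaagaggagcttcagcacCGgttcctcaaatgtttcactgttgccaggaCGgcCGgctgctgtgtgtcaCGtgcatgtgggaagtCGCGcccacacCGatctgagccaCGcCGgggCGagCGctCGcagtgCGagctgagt

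Il1rn has 3 windows in the table, which averaged 3.33 CG dinucleotides, and the one printed held 1; the single window of Il7r held 1, that of Il1rap 33 and that of Il6ra 25. Promoter windows were matched for 38 of the 50 genes, some with several, which were averaged per gene. The 22 matched genes that were called higher had a median of 5 CG dinucleotides (range 1 to 35), the 3 called lower had 25 (10.5 to 33) and the 7 not called had 9.5 (1 to 33). All 32851 windows of the table had a median of 7. Among the 22, Il12b, Il17re, Il18r1, Il18rap, Il1f9, Il1r2, Il1rl2, Il21r and Il7r passed the filter on low counts, given below, through CDAHFD alone. That choice favours genes that are higher on CDAHFD, so the medians by call are descriptions. The range of the genes called higher covers that of the genes called lower: Il3ra, Il4ra and Il17rd, all called higher, held 35, 25 and 19. An AP-1 motif (TGANTCA, both strands) lay in 14% of the 50 member windows, against 7.81% of all windows. A copy starts 141 bases before the start in the printed Il1rn window, and the other Il1rn windows held none. Its carriers were Il1rn, Il1a, Il16 and Il22ra1, called higher, Il15ra, called lower, and Il13ra2 and Il17rb, not called. The STAT motif TTCNNNGAA was found in 14% of member windows and 8.3% of all windows, with 1 copy 142 bases before the Il7r start. The STAT carriers were Il7r, Il18r1, Il1f9 and Il1r2, called higher, and Il12rb2, Il17d and Il4, not tested. The C/EBP motif TTGCNNAA was found in 20% and 10.8%, the NF-kB consensus in 10% and 4.51%, and the PU.1 motif GAGGAAGT in 2.0% and 3.2%. Motifs were searched independently and may share bases. A match describes letters in a window and shows no binding.

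Most measurable interleukin genes were higher in CDAHFD livers, and a few abundant receptor chains were lower. Of the 50 genes, 40 passed the filter on low counts and were tested, and of these 29 were called higher and 4 lower at an adjusted p of 0.05 (edgeR quasi-likelihood test, Benjamini-Hochberg over 14215 genes). Over all tested genes 28.5% were called higher and 23.5% lower, 52.1% in either direction. The median change of the 40 was 1.28 on the log2 scale, CDAHFD over normal diet, beside 0.01 over all genes. Of the 40, 11 passed the filter through the CDAHFD libraries alone, namely Il12b, Il13ra2, Il17re, Il18r1, Il18rap, Il1f9, Il1r2, Il1rl2, Il21r, Il7 and Il7r. That choice favours genes that are higher on CDAHFD, so the 10 calls among these 11 are descriptions. Among the 29 that passed in both diets, 19 were called higher and 4 lower, with a median of 0.82. With total counts in place of TMM scaling the median gene moved to 0.34, and 32 members were called higher and 3 lower, against 44.0% and 8.08% of all genes (52.0% in either direction). With scaling to hepatocyte markers the counts were 32 and 3, against 46.0% and 6.01% (52.0% in either direction).

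**Figure D1:**
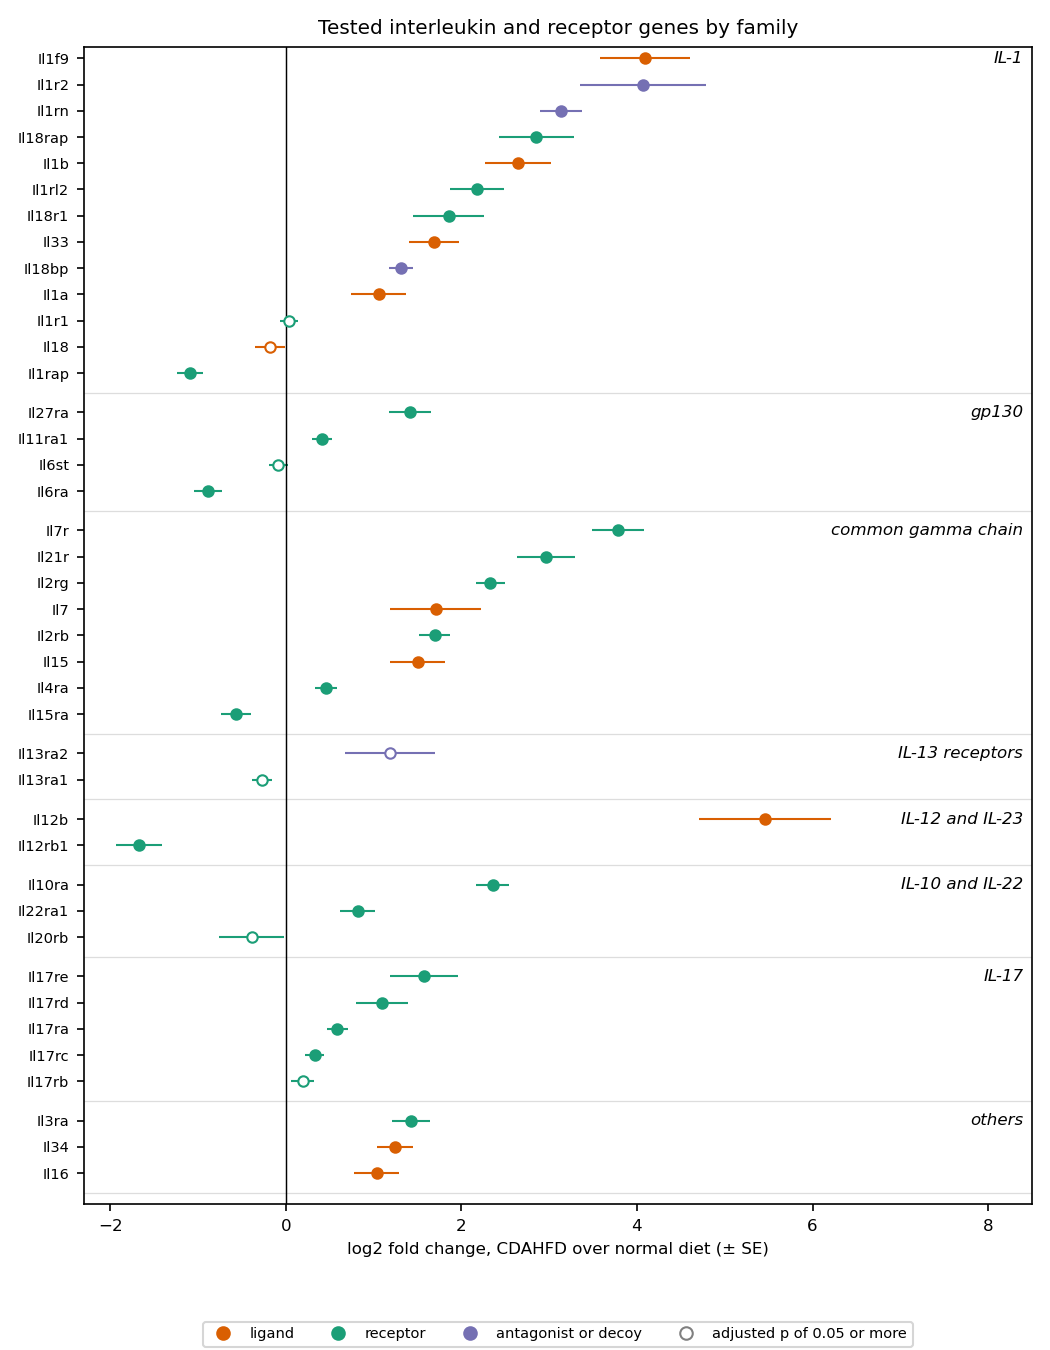
Log2 fold change, CDAHFD over normal diet (x axis, with standard error), of the 40 tested genes, grouped by family and coloured by role (n = 3 libraries per diet). Open circles did not pass an adjusted p of 0.05. The 4 genes called lower are Il12rb1, Il1rap, Il6ra and Il15ra, and all are receptor chains.

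By role, 9 of 10 tested ligands, 17 of 26 receptor chains and 3 of 4 antagonists or decoys were called higher, and the 4 called lower were all receptor chains. Over all genes 28.5% were called higher and 23.5% lower. The CPM values of the diets did not overlap for 31 members that were higher and 4 that were lower, against 32.2% and 28.4% of all genes (60.6% in either direction). The 31 include all 11 members that passed the filter through the CDAHFD libraries alone, so that part is a description. The counts by role include these members too. Those called higher are Il12b, Il1f9 and Il7 among the ligands and Il1r2 among the antagonists or decoys, and the rest are receptor chains. Every CDAHFD library had a count above 0 for all 50 genes, while the normal diet libraries did for 44, 47 and 46. Over all gene IDs, 20986 to 21761 had a count on CDAHFD and 19085 to 19454 on normal diet. A member could reach the minimum of 10 summed counts through CDAHFD alone, as Il12b did with 75 counts there and 1 on normal diet. All gene IDs together were held to no such minimum, so these counts of members are a description.

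Marker genes of several cell types were also called, and those of others were not. Beside them, 28.5% of all tested genes were called higher and 23.5% lower. The 4 leukocyte markers were all called higher (Ptprc by 2.17 ± 0.15 on the log2 scale, Cd53 by 2.10 ± 0.12), and their summed level was 234 to 260 CPM on CDAHFD and 42.1 to 50.8 CPM on normal diet. The 6 macrophage and monocyte markers summed to 869 to 939 CPM on CDAHFD and 152 to 194 CPM on normal diet. All 6, among them Csf1r of the partner list, were called higher. Of these, Itgam, named after its value was seen, passed the filter through the CDAHFD libraries alone. Of 4 markers of Kupffer cells, the resident macrophages, only Cd5l was called (0.75 ± 0.19), the list median was -0.08, and the sum was 280 to 453 CPM on CDAHFD and 238 to 340 CPM on normal diet. All 5 stellate cell markers were called higher, at 687 to 758 CPM summed on CDAHFD and 197 to 240 CPM on normal diet. The 4 cholangiocyte markers, also all called higher, summed to 18.2 to 27.7 CPM on CDAHFD and 4.51 to 8.35 CPM on normal diet. All 4 dendritic cell markers were called higher too. Of 4 sinusoidal endothelial markers only 1 was called higher (list median 0.17), of 4 B cell markers 2 and of 2 tested eosinophil markers 1. In the ILC2 list only Rora was tested, named after its value was seen, and it was called lower. The rest of that list did not pass the filter, and their summed counts were higher on CDAHFD. Areg had 19, 7 and 33 counts on CDAHFD and 1, 0 and 0 on normal diet. Gata3 had 11, 7 and 18 against 4, 3 and 2, and Klrg1 had 3, 14 and 4 against 4, 0 and 1. No mast cell or basophil marker was tested. All 3 tested neutrophil markers were called higher, and the list summed to 6.68 to 11.7 CPM on CDAHFD and 0.441 to 0.700 CPM on normal diet. Those 3 passed the filter through the CDAHFD libraries alone, so their calls are descriptions, and Ly6g and Mpo were too low to test. The 12 hepatocyte markers summed to 108503 to 122034 CPM on CDAHFD and 144914 to 162554 CPM on normal diet, with 8 called lower and 1 higher. The hepatocyte values depended on scaling: Alb changed by -0.47 ± 0.15 with TMM and by -0.15, not called, with total counts, and its TMM call was lost without CDAHFD replicate 1 or 3 or normal diet replicate 1 (-0.52, -0.45 and -0.41). In bulk tissue, more cells of a type and more RNA per cell cannot be told apart, and the part of cell numbers in the results below was not tested.

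The IL-1 family held 14 of the genes, and 10 of its 13 tested members were called higher and 1 lower. The shares over all genes were 28.5% and 23.5%. Of the 10, Il18r1, Il18rap, Il1f9, Il1r2 and Il1rl2 passed the filter through the CDAHFD libraries alone, so their calls are descriptions. Il1b, the ligand made by activated macrophages, had 4.21, 9.55 and 5.14 CPM in the CDAHFD libraries, against 0.589, 0.931 and 1.5 CPM in the normal diet libraries. CDAHFD replicate 2 was the highest and no value of a diet reached the other's. The change was 2.65 ± 0.38 (adjusted p = 0.000152), and 2.18 without CDAHFD replicate 2. Il1a, the related alarmin, had 3.60, 4.51 and 3.27 CPM on CDAHFD and 1.38, 2.94 and 1.15 CPM on normal diet. Normal diet replicate 2 came close to the lowest CDAHFD library, and the rise of 1.06 ± 0.32 (adjusted p = 0.0153) no longer passed without CDAHFD replicate 2 or normal diet replicate 1, where it was 0.88 in each case.

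Il33, an alarmin of stromal and endothelial cells, had 3.20, 5.15 and 5.38 CPM on CDAHFD and 1.52, 1.76 and 0.95 CPM on normal diet, a rise of 1.69 ± 0.28 (adjusted p = 0.000466). The diets did not overlap. Its receptor ST2, encoded by Il1rl1, was close to the detection limit, with 8, 7 and 6 counts on CDAHFD and 0, 0 and 2 on normal diet, and was too low for the main test. The ratio of these counts, corrected for library size, was 8.15, with an exact 95% interval for counting error of 1.99 to 71.7.

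Il18 is made constitutively in liver, and it was the only tested ligand that was not called. Its CPM values of 9.19, 8.98 and 6.66 on CDAHFD and 8.64, 8.57 and 10.8 on normal diet overlapped, with a change of -0.18 ± 0.17 (adjusted p = 0.411) that turned to 0.14 with total counts. Both chains of its receptor were low and were called higher. Il18r1, the binding chain, had 0.689, 1.14 and 1.05 CPM on CDAHFD, against 0.246, 0.343 and 0.200 CPM on normal diet (1.85 ± 0.40, adjusted p = 0.00243). Il18rap, the accessory chain, had 1.82, 1.79 and 1.13 CPM on CDAHFD and 0.344, 0.0980 and 0.200 CPM on normal diet (2.86 ± 0.43, adjusted p = 0.000228). For both chains the filter was passed on CDAHFD alone.

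Inhibitors of the family were higher on CDAHFD. Il1rn, which encodes IL-1 receptor antagonist, had 42.6, 47.3 and 32.2 CPM on CDAHFD and 6.78, 3.48 and 3.60 CPM on normal diet. Its lowest CDAHFD value was well above the highest normal diet value, and it rose by 3.14 ± 0.24 (adjusted p = 1.54e-06). Il18bp, the secreted binding protein of IL-18, had 43.7, 45.3 and 44.0 CPM on CDAHFD and 14, 19.6 and 19.8 CPM on normal diet, and it rose by 1.31 ± 0.14 (adjusted p = 1.38e-05). The CDAHFD libraries agreed closely for this gene, with an SD of 0.828 CPM. Il1r2, the decoy receptor for IL-1, had 17, 16 and 17 counts on CDAHFD and 0, 0 and 2 on normal diet (adjusted p = 0.00066), a ratio of 19.4 with an exact counting interval of 5.10 to 165.

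**Figure D2:**
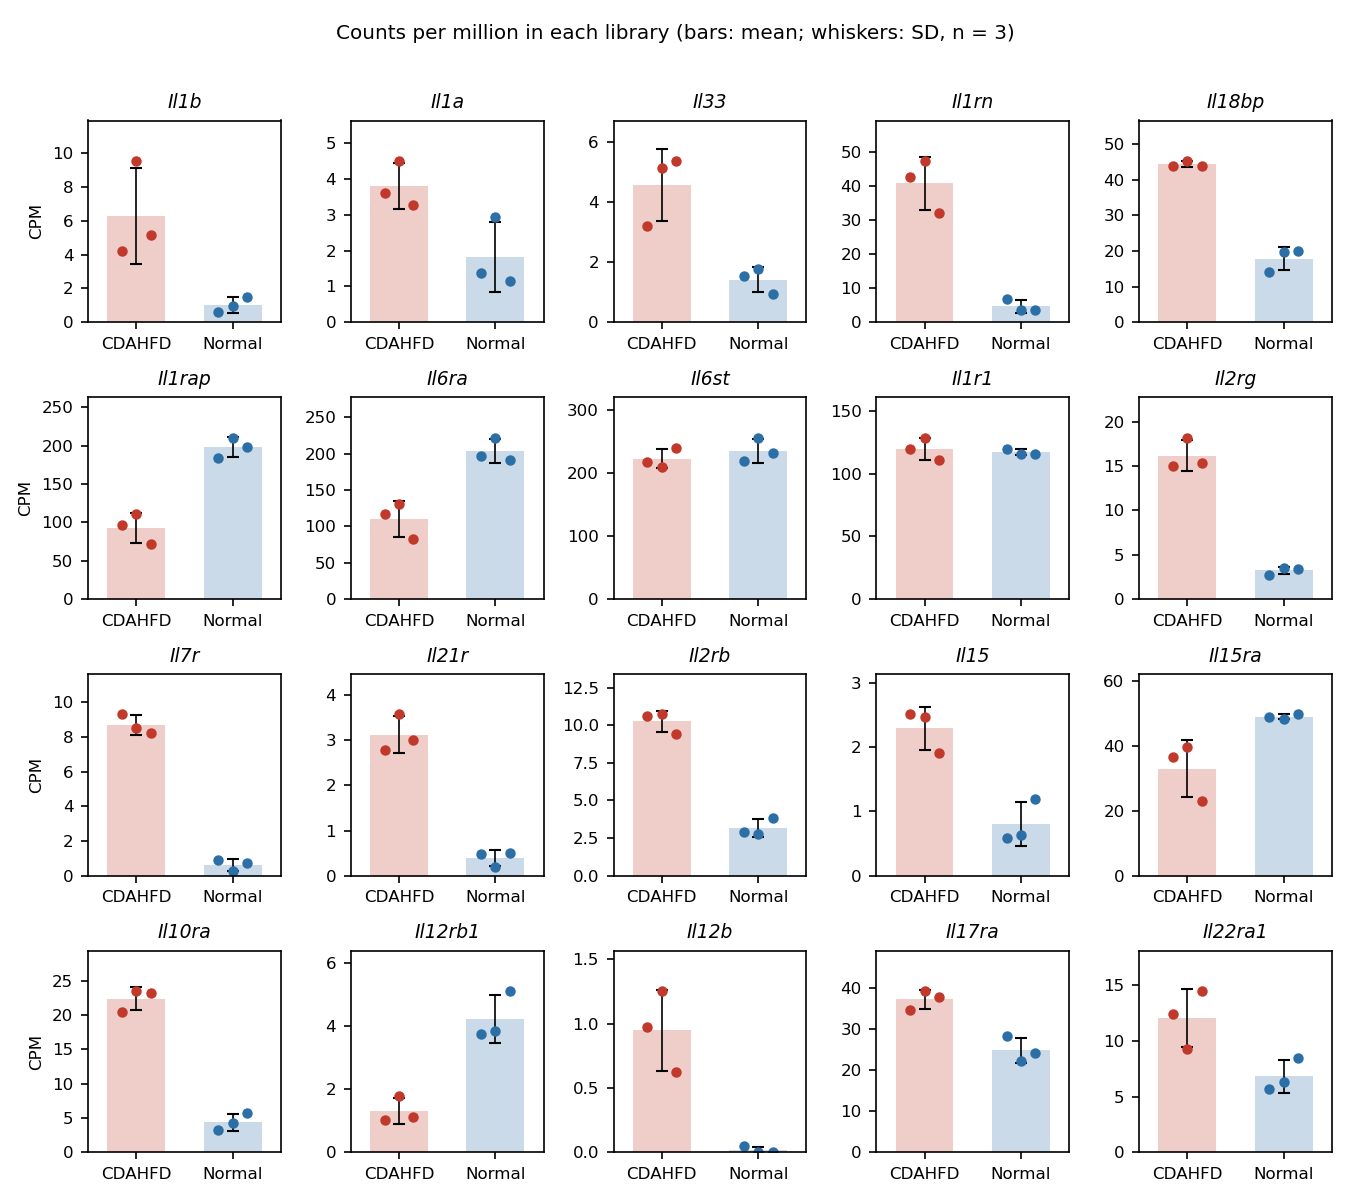
CPM of 20 genes in each library (points), with the mean (bar) and SD (whisker) of the 3 CDAHFD and the 3 normal diet libraries. Il1rn on CDAHFD lies between 32.2 and 47.3 CPM, above all normal diet values, while Il1rap, Il6ra and Il12rb1 lie below them and Il6st and Il1r1 overlap between the diets.

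Whether inhibitor and ligand changed in step was asked within each library, where the scaling of libraries cancels. The ratio of Il18bp to Il18 in deposited TPM was 1.62, 1.72 and 2.25 on CDAHFD and 0.554, 0.779 and 0.623 on normal diet. The log2 ratio averaged 0.88 ± 0.25 on CDAHFD and -0.63 ± 0.25 on normal diet (SD, n = 3 each), a difference of 1.51, and the diets did not overlap. An exact two-sided permutation test gave p = 0.1, which is the smallest that 3 against 3 allows. The ratio of Il1rn to Il1b was 3.49, 1.71 and 2.15 on CDAHFD and 3.96, 1.29 and 0.827 on normal diet, so the diets overlapped. Its log2 difference was 0.53 (exact two-sided permutation p = 0.5) and ranged from 0.051 without normal diet replicate 3 to 1.18 without normal diet replicate 1. The ratio of Il1r2 to Il1r1 was 0.0192, 0.0148 and 0.0198 on CDAHFD; on normal diet Il1r2 was listed at 0 in 2 libraries, so no comparison was made.

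**Figure D3:**
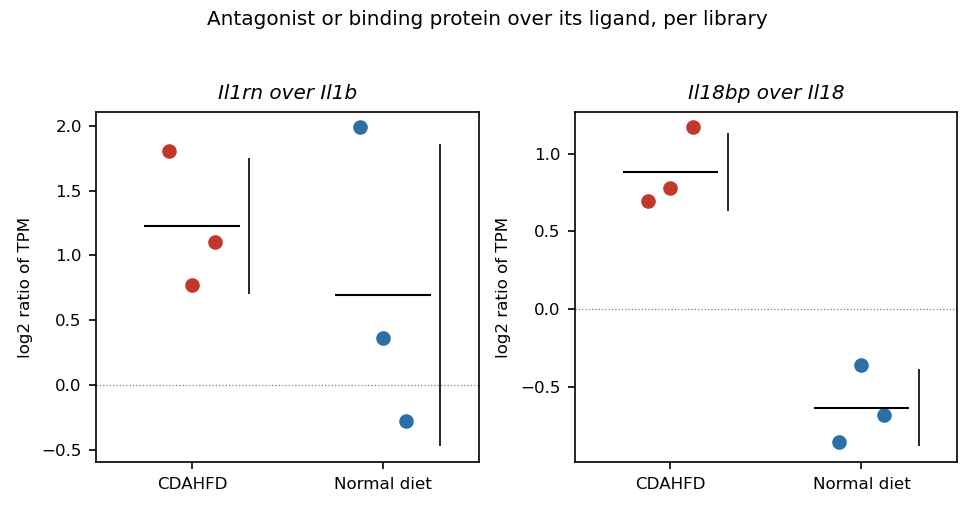
Log2 ratio of deposited TPM within each library (points), with the mean (horizontal line) and SD (vertical line beside it) per diet, n = 3. Il18bp over Il18 is above 0 in the 3 CDAHFD libraries and below 0 in the 3 normal diet libraries, and Il1rn over Il1b overlaps between the diets.

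The signalling chains for IL-1 differed from the ligands. Il1r1, the receptor that binds IL-1, had 120, 129 and 111 CPM on CDAHFD and 120, 116 and 116 CPM on normal diet (0.03 ± 0.10, adjusted p = 0.799). The values overlapped, although with total counts the change was 0.36 and passed. Il1rap, the accessory chain shared by the receptors for IL-1, IL-33 and IL-36, had 96.2, 110 and 72 CPM on CDAHFD and 184, 210 and 198 CPM on normal diet. All 3 CDAHFD libraries lay below the normal diet ones, and the gene fell by 1.09 ± 0.15 on the log2 scale (adjusted p = 0.000102), and by 0.77 with total counts. An antisense gene, Gm20319, shares 4.86% of the exon bases of Il1rap in the GENCODE M21 annotation and held 605 to 953 counts on CDAHFD and 844 to 1049 on normal diet. Whether the counting used strand is not stated.

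The IL-36 arm was low and higher on CDAHFD. Il1f9, an older symbol of the IL-36 gamma gene, had 24, 30 and 19 counts on CDAHFD and 1 in each normal diet library (adjusted p = 5.91e-05). That is a ratio of 18.9, with an exact counting interval of 6.21 to 93.7. Its receptor gene Il1rl2 had 2.43, 1.93 and 1.95 CPM on CDAHFD and 0.442, 0.588 and 0.350 CPM on normal diet (2.18 ± 0.31, adjusted p = 0.000143). The other IL-36 genes, Il1f5, Il1f6 and Il1f8, had 0 counts in all libraries.

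In the order of protein-coding genes on chromosome 1 of GRCm38.p6, Il1r2, Il1r1, Il1rl2, Il1rl1, Il18r1 and Il18rap stand side by side, and all 6 are members. Of these, 4 were called higher, Il1rl1 was not tested and Il1r1, the one gene of the row that passed the filter in both diets, was not called. On chromosome 2, Il1a and Il1b are neighbours and both were called higher. So were the neighbours Il4ra and Il21r on chromosome 7 and Il17re and Il17rc on chromosome 6. Over all genes 28.5% were called higher and 23.5% lower. Il21r and Il17re passed the filter through the CDAHFD libraries alone, so their calls are descriptions. The calls of Il1a, Il4ra and Il17rc were each lost when certain single libraries were left out. Of the chromosome 2 neighbours Il2ra and Il15ra, Il2ra was not tested and Il15ra was called lower.

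Downstream of these receptors, a list of NF-kB genes and of the MyD88 and IRAK arm, which carries IL-1 signals to NF-kB, was called in both directions. Of 23 tested genes 12 were called higher and 6 lower, with a median of 0.27, where 28.5% of all genes were called higher and 23.5% lower. Relb and Nfkb2, listed as NF-kB genes, form the dimer of the alternative pathway rather than of this arm, and rose by 2.61 ± 0.21 and 2.01 ± 0.15. Irak3, an IRAK that restrains the signal, rose by 2.25 ± 0.26. Myd88 itself was not called (0.24 ± 0.11, adjusted p = 0.101), and the call of Irak1 (0.27 ± 0.10, adjusted p = 0.0366) was lost whichever library was left out, with adjusted p between 0.0604 and 0.164. The 6 called lower were Tollip, Traf6, Map3k7, Tab2, Chuk and Ikbkg, named after their values were seen. With total counts Chuk (-0.57) and Ikbkg (-0.35) were still called lower, Map3k7 (-0.17) and Tab2 (-0.064) were not, and Tollip and Traf6 turned to 0.028 and 0.0026. Across this list and the 2 described below the count of lower calls was 8 with TMM but 3 with total counts.

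IL-6 receptors were among the most abundant members, while IL-6 itself was almost absent. Il6 had 1 count in all 6 libraries together, and Il11 had 8. Il6ra, the chain that binds IL-6, had 117, 131 and 81.8 CPM on CDAHFD and 197, 222 and 191 CPM on normal diet. Every CDAHFD library was below every normal diet library, and Il6ra fell by 0.89 ± 0.16 (adjusted p = 0.000726) with TMM, and by 0.57 with total counts. Il6st, the shared signal transducer gp130, had 218, 210 and 239 CPM on CDAHFD and 219, 256 and 232 CPM on normal diet, which overlap (-0.08 ± 0.11, adjusted p = 0.554). Its change turned to 0.24 with total counts.

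CDAHFD replicate 3 was the lowest of its diet for Il6ra, Il1rap and Il15ra alike. It was the highest of its diet for Il6st.

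Other members of this family were called higher. Il11ra1, the IL-11 receptor, had 31.0, 27.6 and 30.9 CPM on CDAHFD and 23.8, 19.6 and 23.8 CPM on normal diet. Its rise of 0.41 ± 0.12 (adjusted p = 0.0121) was 0.35 and not called without CDAHFD replicate 1 or 3, and its close paralog Il11ra2 was listed at 0 counts in every library, so that reads of the pair may have been assigned unevenly. Il27ra had 3.93, 3.83 and 3.98 CPM on CDAHFD and 0.982, 1.67 and 1.75 CPM on normal diet (1.41 ± 0.24, adjusted p = 0.000532). The IL-27 subunit gene Il27 had 6, 12 and 5 counts on CDAHFD and 0, 1 and 0 on normal diet, too few for the main test. Without the filter on low counts Il27 was called higher (adjusted p = 0.00386), as was Il1rl1 (adjusted p = 0.0206), and the other 8 untested members were not, where 17.7% of all genes were called higher. Il27 shares 10.1% of its exon bases with Apobr on the opposite strand, which had 202 to 293 counts on CDAHFD and 25 to 37 on normal diet.

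Of 19 partner genes that act in these families without an Il symbol, 15 were tested. Of these, 12 were called higher and 1 lower, with a median of 1.35, and the shares over all genes were 28.5% and 23.5%. Of the 12, Ifnlr1, Ebi3 and Lif, named after their values were seen, passed the filter through the CDAHFD libraries alone. Csf2rb, the shared beta chain of the IL-3, IL-5 and GM-CSF receptors, rose by 1.99 ± 0.13, the related Csf2rb2 by 3.19 ± 0.14 and Csf2ra by 2.69 ± 0.15, and Clcf1, a ligand that signals through gp130, rose by 2.54 ± 0.26. The lower one was Lifr, the receptor for LIF, named after its value was seen, at 135 ± 20.2 CPM on CDAHFD and 417 ± 67.3 CPM on normal diet.

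Of 8 tested genes of the common gamma chain family, 7 were called higher and 1, Il15ra, lower. The shares over all genes were 28.5% and 23.5%. Of the 7, Il7, Il7r and Il21r passed the filter through the CDAHFD libraries alone, so their calls are descriptions. Il2rg, the shared chain itself, had 14.9, 18.2 and 15.4 CPM on CDAHFD and 2.75, 3.53 and 3.35 CPM on normal diet (2.33 ± 0.16, adjusted p = 6.98e-07). The diets were far apart relative to their spread. Il7r, the IL-7 receptor of lymphocytes, had 9.32, 8.55 and 8.22 CPM on CDAHFD and 0.884, 0.245 and 0.750 CPM on normal diet. Its change was 3.79 ± 0.30 (adjusted p = 1.74e-06), and like Il21r it passed the filter through the CDAHFD libraries alone. Il21r, the IL-21 receptor, had 2.79, 3.58 and 3.00 CPM on CDAHFD and 0.491, 0.196 and 0.5 CPM on normal diet (2.97 ± 0.33, adjusted p = 2.34e-05). Il21 had 0 counts in all libraries.

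Il2rb, shared by the IL-2 and IL-15 receptors, had 10.6, 10.7 and 9.43 CPM on CDAHFD and 2.90, 2.74 and 3.85 CPM on normal diet (1.70 ± 0.18, adjusted p = 1.37e-05). Its private partner Il2ra was near the limit of detection, with 23, 7 and 9 counts on CDAHFD and 7, 8 and 14 on normal diet, which overlap. Of 6 T cell markers 5 were called higher, where 28.5% of all genes were. Their summed level was 12.6 to 19.7 CPM on CDAHFD and 3.24 to 6.60 CPM on normal diet. Those 5 passed the filter through the CDAHFD libraries alone, so their calls are descriptions. Cd4, named after its value was seen, passed in both diets and was not called (0.64 ± 0.39, adjusted p = 0.189). The 4 markers of NK cells and ILC1 summed to 2.69 to 3.83 CPM on CDAHFD and 0.735 to 1.23 CPM on normal diet. Of these, 3 were tested and 2 called higher, and all 3 passed the filter through the CDAHFD libraries alone.

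IL-15 and its presenting chain were called in opposite directions with TMM scaling, but not with total counts. Il15, a growth factor of NK and memory T cells, had 2.51, 2.47 and 1.91 CPM on CDAHFD and 0.589, 0.637 and 1.20 CPM on normal diet (1.5 ± 0.32, adjusted p = 0.00211). Il15ra, which presents IL-15 to neighbouring cells, had 36.5, 39.4 and 22.9 CPM on CDAHFD and 48.8, 48.2 and 49.6 CPM on normal diet. The normal diet libraries agreed within 1 CPM of their mean, and CDAHFD replicate 3 stood lowest. The fall of 0.57 ± 0.17 (adjusted p = 0.0149) depended on the scaling and was 0.25 and not called with total counts. In TPM the diets overlapped.

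Il7, which sustains lymphocytes, had 0.608, 0.930 and 0.585 CPM on CDAHFD and 0.0491, 0.245 and 0.350 CPM on normal diet. Its rise of 1.71 ± 0.52 (adjusted p = 0.0161) no longer passed without CDAHFD replicate 2 (1.42) or normal diet replicate 1 (1.23). Il4ra, the receptor chain for IL-4 and IL-13, had 36.8, 37.5 and 43.3 CPM on CDAHFD and 30.2, 23.7 and 31.6 CPM on normal diet (0.46 ± 0.13, adjusted p = 0.0111), and was not called without CDAHFD replicate 3 (0.35). Both diets had IL-4 receptor transcripts at levels far above those of the ligands, since Il4 had 8, 4 and 12 counts on CDAHFD and 4, 2 and 3 on normal diet and Il13 had 0.

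Neither IL-13 receptor chain was called. Il13ra1, the signalling chain, had 28.9, 32.3 and 27.0 CPM on CDAHFD and 35.6, 38.8 and 32.1 CPM on normal diet (-0.27 ± 0.12, adjusted p = 0.0674), and its change was 0.047 with total counts. Without CDAHFD replicate 2 or normal diet replicate 3 it was called lower, at -0.38 and -0.35. Il13ra2, the decoy, had 0.851, 1.04 and 0.935 CPM on CDAHFD and 0.835, 0.0980 and 0.300 CPM on normal diet (1.19 ± 0.51, adjusted p = 0.0729). Normal diet replicate 1 stood close to the CDAHFD libraries, and without it Il13ra2 was called at 2.21.

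In the IL-12 and IL-23 family the shared ligand subunit and its receptor chain diverged. Il12b, the p40 subunit of both cytokines, had 24, 35 and 16 counts on CDAHFD and 1, 0 and 0 on normal diet (adjusted p = 0.000119). The count ratio was 58.2 with an exact counting interval of 10.1 to 2329. Il12b passed the filter through the CDAHFD libraries alone, so its call is a description. Il12rb1, the receptor chain that binds p40, had 1.01, 1.79 and 1.13 CPM on CDAHFD and 3.73, 3.82 and 5.10 CPM on normal diet. It had the largest fall of any tested member, 1.67 ± 0.26 (adjusted p = 0.000299), and the diets did not overlap. Cells known to carry this receptor include T and NK cells, whose markers are given above. The part of cell numbers in the fall of Il12rb1 was not tested.

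The private subunits were too low to test. Il12a had 4 counts in all, and Il23a had 9, 19 and 8 counts on CDAHFD and 2, 5 and 3 on normal diet. Il12rb2 had 8, 10 and 18 counts on CDAHFD and 6, 4 and 1 on normal diet, and 40.0% of its exon bases lie opposite Serbp1 exons, a gene with 4025 to 4277 counts on CDAHFD and 3700 to 4921 on normal diet. Il23r had 2 counts in all.

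In the IL-10 and IL-22 group, Il10ra, the IL-10 binding chain of leukocytes, had 20.5, 23.5 and 23.1 CPM on CDAHFD and 3.19, 4.21 and 5.70 CPM on normal diet. The rise was 2.36 ± 0.19 (adjusted p = 1.82e-06), with no overlap. Il10 itself had 2, 4 and 2 counts on CDAHFD and 0, 2 and 0 on normal diet, a ratio of 3.10 whose exact counting interval of 0.620 to 30.0 includes 1. Il10rb, the second chain, shared with the IL-22 receptor, had 15, 11 and 2 counts on CDAHFD and 0, 1 and 6 on normal diet. In GENCODE M21 it shares 14.9% of its exon bases with Gm21970 on the same strand, and the annotation used for counting is not given, so its value is uncertain.

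Il22ra1, through which IL-22 acts on hepatocytes and other epithelial cells, had 12.4, 9.33 and 14.5 CPM on CDAHFD and 5.70, 6.32 and 8.5 CPM on normal diet (0.82 ± 0.20, adjusted p = 0.005). The lowest CDAHFD library stood just above the highest normal diet one. Il22 had 0 counts in all libraries. Il20rb was not called, turned to 0.031 on log2(TPM + 0.1), and its values of 0.932, 0.679 and 0.624 CPM on CDAHFD and 0.835, 0.637 and 1.45 CPM on normal diet overlap (-0.39 ± 0.37, adjusted p = 0.407).

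Of 5 tested IL-17 receptor genes 4 were called higher, where 28.5% of all genes were, and Il17rb was not called. Of the 4, Il17re passed the filter through the CDAHFD libraries alone. Il17ra, the chain common to the IL-17 receptors, had 34.8, 39.3 and 38.0 CPM on CDAHFD and 28.3, 22.2 and 24.2 CPM on normal diet (0.59 ± 0.12, adjusted p = 0.00165). Il17rc, its partner for IL-17A and IL-17F, had 25.3, 24.9 and 26.9 CPM on CDAHFD and 19.2, 19.6 and 22.5 CPM on normal diet. The rise of Il17rc (0.33 ± 0.11, adjusted p = 0.0289) was lost when any CDAHFD library or normal diet replicate 1 or 2 was left out, at 0.26 to 0.32. Il17rb, the IL-25 receptor, was not called (0.20 ± 0.13, adjusted p = 0.237), although with total counts it was, at 0.52.

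Il17rd and Il17re, the rest of the receptors, were low. Il17rd averaged 1.52 ± 0.235 CPM on CDAHFD and 0.707 ± 0.118 CPM on normal diet (1.10 ± 0.29, adjusted p = 0.0084), and Il17re, the IL-17C receptor of epithelial cells, had 0.729, 0.787 and 1.01 CPM on CDAHFD and 0.344, 0.294 and 0.200 CPM on normal diet (1.57 ± 0.38, adjusted p = 0.00512). Il17a, Il17f, Il17b and Il25 had 0 counts in all libraries. Il17c had 4, 1 and 3 counts on CDAHFD and 2, 1 and 1 on normal diet, and Il17d had 3, 1 and 6 on CDAHFD and 0, 1 and 0 on normal diet.

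The 3 members outside these families were all called higher, where 28.5% of all genes were. Il34, a ligand of the macrophage receptor CSF1R, had 6.60, 5.79 and 5.42 CPM on CDAHFD and 2.41, 2.01 and 3.10 CPM on normal diet (1.24 ± 0.20, adjusted p = 0.000413). Its receptor gene Csf1r was higher by a like amount, at 172 ± 8.32 CPM on CDAHFD and 67.4 ± 9.81 CPM on normal diet (1.35 ± 0.12). Il3ra, the IL-3 binding chain, rose by 1.43 ± 0.22 and averaged 4.98 ± 0.401 CPM on CDAHFD and 1.84 ± 0.407 CPM on normal diet, and Il3 had 0 counts. Il16, a chemoattractant of CD4+ cells, rose by 1.03 ± 0.25 to 4.52 ± 1.26 CPM on CDAHFD, against 2.21 ± 0.368 CPM on normal diet. Il16 shares 15.3% of its exon bases with Stard5 on the opposite strand.

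Ligands and receptor chains were set side by side. The pair table joins 36 ligands or antagonists to their chains. Of these 36, 17 had 0 counts, 4 had fewer than 10, 5 were members too low to test, 9 were called higher and 1, Il18, was not called. Among 22 pairs with both ends tested, 10 were higher at both ends, 6 had a higher ligand and a lower chain, 3 had a higher ligand and a chain not called, and 3 had a ligand not called and a higher chain. In 13 of these pairs both ends passed the filter in both diets, and of these 5 were higher at both ends, 4 had a higher ligand and a lower chain, 3 a higher ligand and a chain not called, and 1 a ligand not called and a higher chain. The 6 opposed pairs were Il1a, Il1b, Il33 and Il1f9 with Il1rap, Il12b with Il12rb1, and Il15 with Il15ra, of which the last was not opposed by call with total counts. Pairs share genes, so these counts are a description.

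**Figure D4:**
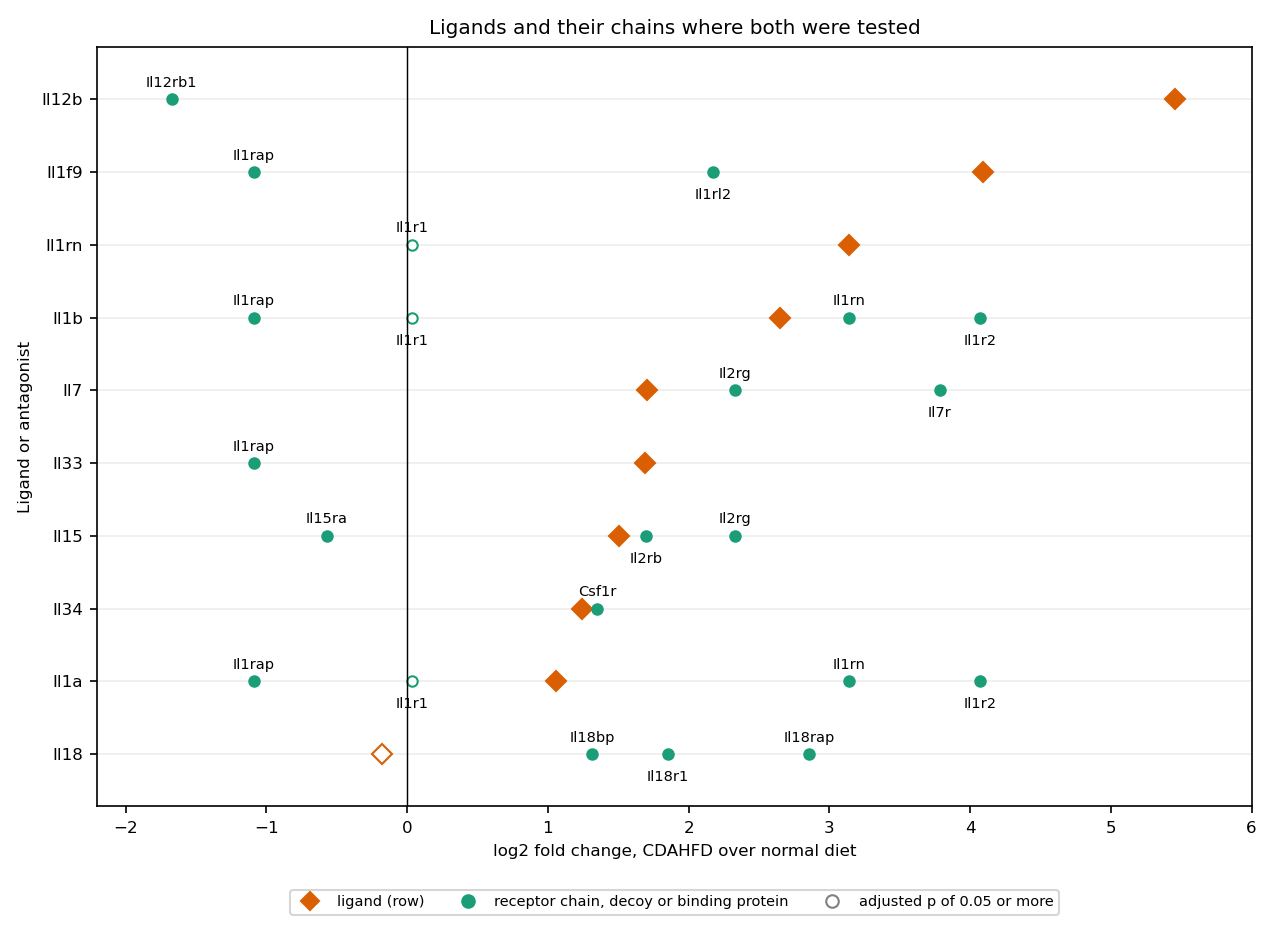
Log2 fold change, CDAHFD over normal diet (x axis), of 10 ligands or antagonists (diamonds, 1 per row) and of the chains, decoys or binding proteins paired with them (circles), where both were tested. Open symbols did not pass an adjusted p of 0.05. Il1rap, Il15ra and Il12rb1 lie left of 0 beside ligands that lie right of it.

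Levels of different genes were compared per length, in the deposited TPM. On CDAHFD the highest means were Il6st (62.7 ± 5.97 TPM), Il1r1 (58.8 ± 2.60), Il18bp (45.7 ± 0.701) and Il6ra (39.6 ± 8.18), and on normal diet Il6ra (57.1 ± 7.47 TPM), Il6st (51.6 ± 6.67), Il1r1 (44.7 ± 1.79) and Il1rap (42.2 ± 4.70). In both diets neighbours in these orders lie within about their spread, except Il1r1 over Il18bp on CDAHFD. Il18bp had rank 3 of the 50 on CDAHFD and rank 9 on normal diet. Il6ra, Il6st, Il1r1 and Il1rap together held 34.1%, 33.9% and 32.7% of the members' summed TPM on CDAHFD, against 52.4%, 54.5% and 50.2% on normal diet. The summed TPM of the 50 genes was 557, 572 and 537 on CDAHFD, above the 348, 401 and 369 on normal diet. TPM are not scaled by TMM, and on log2(TPM + 1) the median of all tested genes was also higher, by 0.29. The part of scaling in the sums was not tested. The most abundant ligand in both diets was Il18, at 25 ± 3.84 TPM on CDAHFD and 21.9 ± 2.61 TPM on normal diet.

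**Figure D5:**
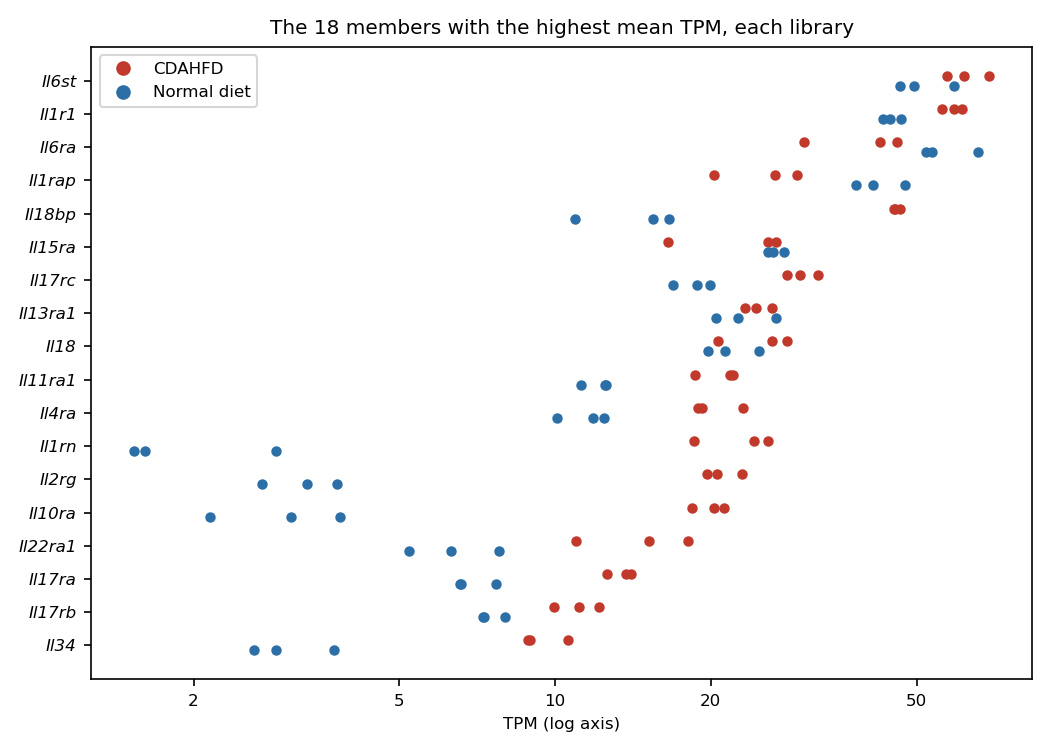
TPM (log axis) in each library of the 18 members with the highest mean TPM, CDAHFD above normal diet in each row. Receptor chains and Il18bp fill the upper rows, and Il1rn, Il2rg and Il10ra show wide gaps between the diets.

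Among genes of the JAK and STAT pathway, through which most interleukin receptors signal, nearly all calls were higher. Of 22 tested genes 10 were called higher and 1 lower, with a median of 0.26. Over all genes 28.5% were called higher and 23.5% lower, 52.1% in either direction. Of the 10, Socs1, named after its value was seen, passed the filter through the CDAHFD libraries alone. The lower one was Socs4 (-0.34 ± 0.12 with TMM), named after its value was seen, which was at -0.022 and not called with total counts and turned to 0.021 on log2(TPM + 1). Cish, an inhibitor induced by STAT5, rose by 1.5 ± 0.41 (adjusted p = 0.0104, and 0.0714 by DESeq2), the related inhibitor gene Socs2 by 1.47 ± 0.27 and Stat5a by 1.05 ± 0.13. Cish had a wide spread on normal diet, at 15.7 ± 2.52 CPM on CDAHFD and 5.55 ± 3.72 CPM on normal diet. Jak1 (-0.15 ± 0.12, adjusted p = 0.315) and Jak2 (0.25 ± 0.11, adjusted p = 0.0862) were not called, and Jak1 turned to 0.18 and Jak2 passed at 0.57 with total counts. Socs3, the feedback inhibitor of gp130 named after its value was seen, rose by 1.03 ± 0.15 (adjusted p = 0.000143), while Stat3 was not called (0.01 ± 0.10) with TMM but was called higher with total counts, at 0.33.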

How the data were processed

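Whole-liver poly(A) RNA of 6 samples was profiled, 3 libraries on CDAHFD and 3 on normal diet. Per the labels' protocols, RNA was extracted with TRIzol and went into a stranded mRNA ligation kit; STAR 2.7.11a and the build GRCm39 are listed in the submitters' processing notes. In the sources used here, how reads were counted (tool, annotation, strand setting) is not given. The authors deposited raw counts per Ensembl gene as whole numbers, and TPM, per gene length with the same sum in every library. Columns beginning CD were read as CDAHFD and ND as normal diet, with the replicate numbers of the titles.

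Symbols came from a GRCm38 name table (51911 of 56847 IDs matched), so some are older. Genes were filtered with filterByExpr (minimum count 10), leaving 14215, scaled by TMM and tested with edgeR 4.0.16 in R 4.3.3 (quasi-likelihood, diet as the term, Benjamini-Hochberg over all genes, threshold 0.05). CPM use TMM-scaled totals. Changes are log2 fold changes, CDAHFD over normal diet, with standard errors (the coefficient over the root of F). The pipeline was tested on simulated data. Members, lists and tests were chosen with earlier results of these data known, and general knowledge gave the roles. All 50 members could be named; values per library are given for the 14 called members that changed most among those averaging 0.5 CPM or more, the members called lower, their paired chains and the ratio genes, and further members were added for completeness. Of each partner or signalling list, the first 2 genes and the 3 called with the largest change and at least 1 CPM were named, and other genes after their values were seen. Intervals cover counting error only (exact binomial, 95%). No libraries looked duplicated (chi-square per degree of freedom 19.4 to 41.8). Alternatives were other scalings, filters, DESeq2 1.42.0, limma 3.58.1 (voom, and log2 of TPM + 1 or + 0.1), a replicate block and leaving out each library.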

Additional observations from a re-analysis of the deposited data

How the results depend on the processing

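Of the members' counts, 29 called higher and 4 lower, no alternative moved either by over 1.5 times. Higher calls ran from 23 with the stricter filter, which tested fewer genes, to 32 with total counts, hepatocyte markers or TPM, and lower calls from 3 to 5. Leaving out 1 library gave 26 to 29 higher and 4 or 5 lower, and 6531 to 7520 genes called in all, beside 7404. For partner and signalling genes 34 were called higher (31 to 33 with a library left out) and 8 lower (6 to 8). Lower calls there were 3 with total counts, 2 with hepatocyte markers, 2 on log2(TPM + 1), 2 on log2(TPM + 0.1) and 5 with no filter; the cause was not tested. Higher calls were 45 with total counts, hepatocyte markers and TPM.

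Among the members, changes of sign were seen in Il18, Il6st, Il13ra1, Il20rb and Il1r1, which were not called. With total counts, hepatocyte markers, log2(TPM + 1) and log2(TPM + 0.1), in this order, Il18 was at 0.14, 0.20, 0.18 and 0.18, Il6st at 0.24, 0.31, 0.28 and 0.28, Il13ra1 at 0.047, 0.11, 0.089 and 0.092, Jak1 at 0.18, 0.25, 0.22 and 0.22, Tollip, called lower with TMM, at 0.028, 0.092, 0.071 and 0.072, and Traf6, also called lower, at 0.0026, 0.066, 0.040 and 0.044. Socs4, called lower, was at 0.043 with hepatocyte markers, 0.021 on log2(TPM + 1) and 0.024 on log2(TPM + 0.1). Stat3 was at -0.010 with RLE scaling and with DESeq2, and -0.085 to 0.037 with a library left out. Il20rb was at 0.0041 on log2(TPM + 1), 0.031 on log2(TPM + 0.1) and -0.63 to 0.0020 with a library left out (positive without normal diet replicate 3), and Il1r1 at -0.058 to 0.052 with a library left out (negative without CDAHFD replicate 2). The log2 difference of the Il18bp to Il18 ratio was 1.37 to 1.65 with a library left out, and that of Il1rn to Il1b 0.051 to 1.18, or 0.56 from counts with 0.5 added. The Il1r2 to Il1r1 ratio was not recomputed, since it had no main comparison.

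The diets share replicate numbers, but same-numbered libraries did not deviate together (correlations -0.05, 0.07 and 0.12). With the replicate block 7357 genes were called, 29 members higher and 4 lower, and 33 and 8 partner and signalling genes. Members below about 0.44 CPM in all libraries were at the limit of depth.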
